A study of Homo sapiens with 2 samples.

Results

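The immediate early genes outside the AP-1 family were described here in HCT116 cells after knockdown of KAT7. The set was chosen by gene name and held 10 genes, EGR1, EGR3, SRF, NR4A1, IER2, IER3, IER5, ZFP36, ZFP36L1 and ZFP36L2, out of 60623 named genes in the count table. Each gene name occurred in 1 row. HCT116 is an epithelial line from a human colon carcinoma. The siKAT7 culture was transfected with an siRNA against KAT7 (also called HBO1, the name its column carries) and the siControl culture with a non-specific siRNA. Both were of WT genotype by their labels, grew in serum and were transfected with a cationic lipid reagent. The labels do not state how long after transfection RNA was taken. The comparison asked how lowering KAT7, a histone acetyltransferase of the MYST family, changes transcription.

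Each group had 1 library, so no difference below has a replicate check and no test of the treatment was possible. Named genes summed to 23533186 expected counts in siKAT7 and 23450331 in siControl. Intervals are exact 95% intervals of the split of a gene's counts between the libraries. They cover counting error alone, because 1 library per group gives no spread between cultures. Sequenced PCR copies were not told apart by molecular identifiers, so the intervals can be too narrow even for counting error. KAT7 itself had 287.22 expected counts in siKAT7 and 442.94 in siControl, which is 69.6% of the siControl level (59.7% to 80.8%). Its log2 ratio of -0.52 was short of a 1.5-fold difference, which it passed with total-count scaling, at -0.63. Of the 7 epithelial markers, 6 reached a mean of 1 CPM (counts scaled to the library size and the TMM factor), and the exception was VIL1. Of 15 fibroblast, blood and endothelial markers, 13 were under 1 CPM, 5 of them at 0 in both libraries, and the other 2 were COL1A1 and CD68.

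Immediate early genes are transcribed within minutes of a growth factor, stress or adhesion signal, without new protein synthesis. Kinases of the ERK and p38 cascades act on ternary complex factors that bind DNA with SRF, at CArG boxes in the promoters of such genes, and the transcripts are short-lived. Many carry AU-rich elements after the coding region, to which the ZFP36 proteins bind to bring about deadenylation and decay, so the set holds an activator of the response (SRF), induced transcription factors (EGR1, EGR3, NR4A1) and proteins that end it (the ZFP36 family).

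The promoters of EGR1 and SRF are shown because both hold CArG boxes, the sites through which SRF acts, and SRF is itself a member of the set. The stretches end just before the RefSeq start of transcription and come from RefSeq on GRCh38.p14, forward strand, with the CArG boxes in capitals. That of EGR1 is chr5:138465279-138465478 and that of SRF is chr6:43171119-43171268.
EGR1: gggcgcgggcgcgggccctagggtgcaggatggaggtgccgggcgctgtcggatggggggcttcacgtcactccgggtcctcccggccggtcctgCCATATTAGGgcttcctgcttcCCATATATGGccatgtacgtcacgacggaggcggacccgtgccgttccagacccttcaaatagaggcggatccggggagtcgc
SRF: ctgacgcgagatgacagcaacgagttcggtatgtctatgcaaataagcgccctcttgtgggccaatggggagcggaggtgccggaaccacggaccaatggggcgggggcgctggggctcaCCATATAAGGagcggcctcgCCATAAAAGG

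The boxes began 105 and 83 bases before the start of EGR1 and 30 and 10 bases before that of SRF. Promoter windows of 300 bases (250 before and 50 after the start) were held for 7 of the 10 genes, in 10 entries. A CArG box, searched on both strands, was found in 1.29% of all 35116 windows, and 11 windows held at least 2. The EGR site GCGNGGGCG was in windows of EGR1, SRF and ZFP36L1 and in 9.43% of all windows. The ETS sequence CCGGAA was in those of IER2, IER5, NR4A1 and SRF and in 17.2% of all. Other forms of the ETS site were not searched, so the remaining windows may hold them. The cyclic AMP response element TGACGTCA was in that of ZFP36L1 and in 1.85% of all, and the AP-1 site TGANTCA was in 0 of the members' windows and 7.71% of all. A match describes the letters of the window and is not a measured binding site.

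AU-rich sites are shown for the 5 members that hold the nonamer TTATTTATT after the stop codon, because the ZFP36 proteins bind such sequence. Each line gives the first site, in capitals, with 8 bases on either side, in the direction of transcription, from GENCODE 29 transcripts on GRCh38.
IER5: gtcttcctTTATTTATTtatttatt
SRF: ggcaccacTTATTTATTgttgcctt
ZFP36: tgacgactTTATTTATTctaatatg
ZFP36L1: ctgttggaTTATTTATTttagaaat
ZFP36L2: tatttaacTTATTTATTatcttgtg

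These lie at chr1:181092445-181092469 (IER5, forward), chr6:43179226-43179250 (SRF, forward), chr19:39409198-39409222 (ZFP36, forward), chr14:68788079-68788103 (ZFP36L1, reverse) and chr2:43223450-43223474 (ZFP36L2, reverse). The IER5 transcript held 3 such nonamers, which overlap within the 1 continuous run shown, and the other 4 held 1 each. Of 11834 protein-coding genes averaging 1 CPM or more, 7.82% held the nonamer, against 5 of the 10 members. With the looser criterion of at least 3 copies of ATTTA, the count was 8 of 10 members and 38.5% of those genes. The members' stretch after the stop codon was longer, at a median of 1552.5 bases against 971 over those genes. The part of that length in the motif counts was not tested. IER3 had 6 copies of ATTTA and no nonamer, EGR1 had 1 copy, and IER2 had 0. All 3 ZFP36 family transcripts hold the kind of sequence that their own proteins are known to bind.

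The members were abundant and differed widely among themselves. Per kilobase of the longest annotated transcript, IER3 had the highest level, at 1738 CPM per kilobase in siKAT7 and 1160 in siControl. EGR1 followed at 533 and 400, ZFP36 at 368 and 306, IER2 at 245 and 195, and ZFP36L1 at 179 and 165, each with siKAT7 before siControl. IER5 had 77.8 CPM per kilobase in siKAT7 and 58.2 in siControl, NR4A1 67.0 and 43.3, SRF 33.7 and 29.8, ZFP36L2 11.97 and 10.1, and EGR3 6.35 and 4.08. The order of the 10 genes was the same in both libraries. It depends on the length used, since the longest NR4A1 transcript was 4837 bases and the length deposited with its counts 3511. At the shorter length NR4A1 would stand before IER5 in both libraries. Without replicates, no pair of neighbours in that order could be set against a spread between cultures. By counts, 7 of the 10 were among the 500 highest genes of the siKAT7 library and 5 among those of siControl.

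**Figure D1:**
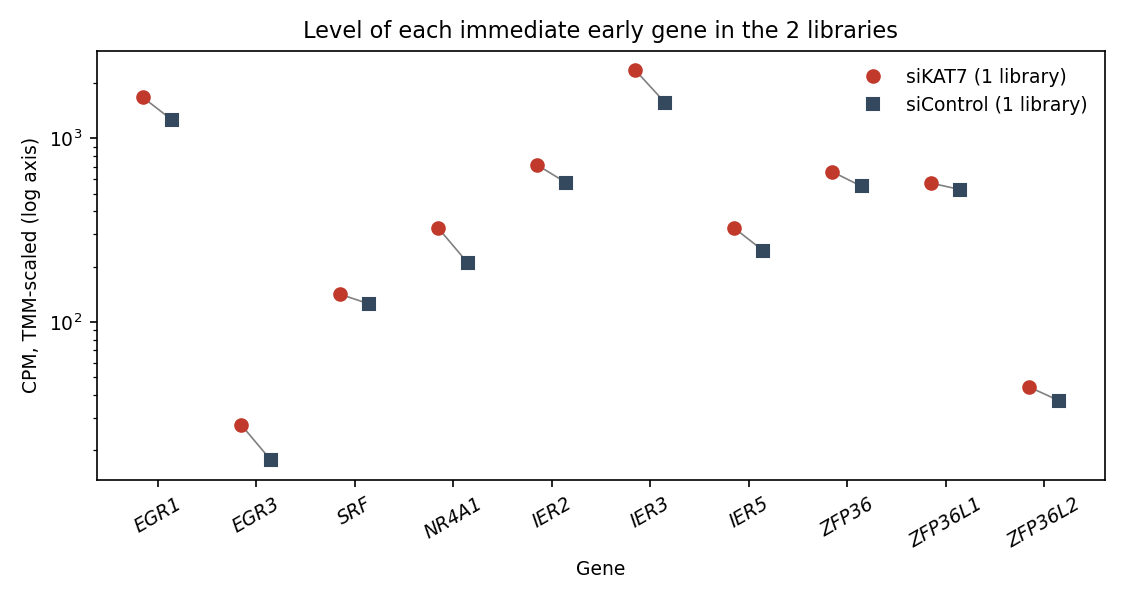
Level of each gene in CPM after TMM scaling, on a log axis, with 1 point per library (siKAT7 circles, siControl squares). In each of the 10 genes the siKAT7 point lies above the siControl point, and levels run from 2346 CPM for IER3 in siKAT7 down to 17.7 CPM for EGR3 in siControl.

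All 10 members had a log2 ratio, siKAT7 over siControl, above 0, and for all 10 the interval lay wholly above 0. The members were chosen with earlier results of these data known, so the shares below are a description. Of all 13217 genes averaging 1 CPM or more, 49.3% had a ratio above 0 and 23% an interval wholly above it. Among the 1758 genes averaging 100 CPM or more, which include 8 of the members, those shares were 63.3% and 52.4%. The median log2 ratio was 0.37 over the members, against 0.00 over all genes and 0.07 over genes of at least 100 CPM. Only EGR3 and NR4A1 were at least 1.5-fold higher with an interval that excluded 0, and no member was lower, while 3.92% of all genes were higher by that rule and 3.9% were lower. Among genes of at least 100 CPM, where NR4A1 falls, 2.22% were higher and 0.0569% lower. With the limit set at 25% instead, 6 members were higher (EGR1, EGR3, IER2, IER3, IER5 and NR4A1), against 10.1% of all genes and 11.1% of genes of at least 100 CPM.

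Scaling by total counts alone lowered log2 ratios by 0.11. With it all 10 ratios stayed above 0, against 34.1% of all genes and 43.2% of genes of at least 100 CPM. For 8 members the interval stayed wholly above 0, against 13.3% and 31.7%. No member reached 1.5-fold, while 2.68% of all genes were higher and 6.37% lower, so this scaling also moved the balance of calls over all genes. The intervals of SRF (-0.0019 to 0.14) and ZFP36L1 (-0.02 to 0.05) then included 0. In the authors' deposited table the log2 folds of the members ran from 0.01 to 0.53. The authors' deposited table gave 7 of the 10 an adjusted p under 0.05, against 25.9% of the 23510 genes it tested, and the exceptions were SRF, ZFP36L1 and ZFP36L2. Those p-values compare 2 libraries, not the conditions. The authors' deposited table marked 0 of the 10 as significant, against 1.32% of genes, and the smallest marked log2 fold was 1.01 in size.

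**Figure D2:**
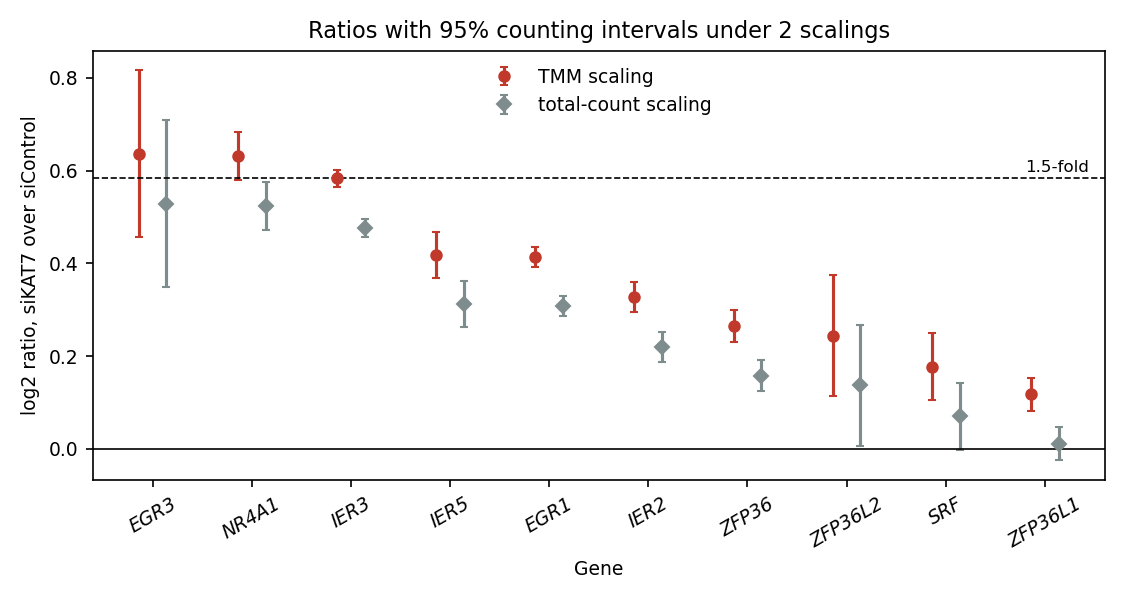
Log2 ratio of siKAT7 over siControl for each gene, ordered by ratio, with 95% counting intervals, under TMM scaling (circles) and total-count scaling (diamonds). Under TMM scaling the points run from 0.64 for EGR3 to 0.12 for ZFP36L1, and only EGR3 and NR4A1 lie above the dashed 1.5-fold line, beneath which all 10 points fall under total-count scaling.

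Among the transcription factors of the set, EGR3 and NR4A1 had the largest ratios. EGR3, a zinc finger factor of the EGR family (chromosome 8, 22687659 to 22693302, reverse strand, 2 exons), had 624 counts in siKAT7 and 431 in siControl, or 27.5 and 17.7 CPM. Its log2 ratio was 0.64 (0.46 to 0.82), or 1.55-fold higher in siKAT7. NR4A1, an orphan nuclear receptor also called NUR77 (chromosome 12, 52022832 to 52059507, forward strand), had 7352.41 expected counts in siKAT7 and 5093.87 in siControl, or 324 and 209 CPM. Its log2 ratio was 0.63 (0.58 to 0.68), also 1.55-fold higher. EGR3 rests on far fewer counts, which its wider interval shows.

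EGR1, the founding EGR factor and a direct SRF target (chromosome 5, 138465490 to 138469315, forward strand, 2 exons), had 37898 counts in siKAT7 and 30519 in siControl. That was 1671 CPM in siKAT7 and 1254 CPM in siControl, a log2 ratio of 0.41 (0.39 to 0.44) and thus 1.33-fold higher. SRF, which binds the CArG boxes shown above (chromosome 6, 43171299 to 43181507, forward strand, 7 exons), had 3215 counts in siKAT7 and 3052 in siControl. Its log2 ratio was 0.18 (0.11 to 0.25), or 1.13-fold higher. The number of EGR3 counts per EGR1 count was 0.0165 in siKAT7 and 0.0141 in siControl, a difference of 0.22 on the log2 scale (0.04 to 0.40). For SRF per EGR1 it was 0.0848 and 0.100, a difference of -0.24 (-0.31 to -0.16). Such ratios within a library do not depend on the scaling, and their intervals cover counting error as well.

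The 3 IER genes are named for their immediate early response. IER3 (IEX-1), a regulator of apoptosis and survival signalling and an NF-kB target (chromosome 6, 30743199 to 30744554, reverse strand, 2 exons), had 53207 expected counts in siKAT7 and 38116 in siControl. It had a log2 ratio of 0.58 (0.56 to 0.60) and, at 1.498-fold, lay just under the 1.5-fold limit. IER5, which promotes HSF1 activity by way of the phosphatase PP2A (chromosome 1, 181088712 to 181092899, forward strand, 1 exon), had 7392 counts in siKAT7 and 5935 in siControl. Its log2 ratio was 0.42 (0.37 to 0.47). IER2, a nuclear protein (chromosome 19, 13150415 to 13154908, forward strand), had 16271 expected counts in siKAT7 and 13920 in siControl, with a log2 ratio of 0.33 (0.29 to 0.36).

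The 3 IER genes differed from one another, with counting intervals that excluded 0. The number of IER3 counts per IER2 count was 3.27 in siKAT7 and 2.74 in siControl, a log2 difference of 0.26 (0.22 to 0.29). IER3 per IER5 differed by 0.16 (0.11 to 0.22), and IER5 per IER2 by 0.09 (0.03 to 0.15). IER3 alone held 34.4% of the members' counts in siKAT7 and 30.7% in siControl, and it made up 49.1% of the counts by which the set was larger in siKAT7. The whole set took 0.658% of all counts in siKAT7 and 0.529% in siControl.

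The ZFP36 family, which bind AU-rich mRNAs and recruit the CCR4-NOT deadenylase, had smaller ratios. ZFP36, also called tristetraprolin (chromosome 19, 39406813 to 39409412, forward strand, 2 exons), had 14903 counts in siKAT7 and 13309 in siControl, with a log2 ratio of 0.27 (0.23 to 0.30). ZFP36L1 (chromosome 14, 68787660 to 68796253, reverse strand, 2 exons) had 12936 counts in siKAT7 and 12793 in siControl, a log2 ratio of 0.12 (0.08 to 0.15). ZFP36L2 (chromosome 2, 43222402 to 43226609, reverse strand, 2 exons) had 1003.17 expected counts in siKAT7 and 908.56 in siControl, a log2 ratio of 0.24 (0.11 to 0.38). ZFP36 counts per ZFP36L1 count were 1.15 in siKAT7 and 1.04 in siControl, a log2 difference of 0.15 (0.10 to 0.20). Counting intervals of the other 2 pairs included 0, at 0.13 (-0.01 to 0.26) for ZFP36L2 per ZFP36L1 and 0.02 (-0.11 to 0.15) for ZFP36 per ZFP36L2. In all, 8 pairs of members were compared in this way, with no adjustment.

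Counts of EGR1, EGR3, IER5, SRF, ZFP36 and ZFP36L1 were whole numbers, while those of IER2, IER3, NR4A1 and ZFP36L2 were not. RSEM shares out reads that match more than 1 model, so these 4 values are estimates. Exons of EGR3, IER2, IER3 and NR4A1 overlap a gene on the opposite strand. The sources used here do not give a strand setting, so whether reads of such a pair were told apart is not known. The largest of the opposite-strand genes by counts was the long non-coding RNA AC025259.3 at NR4A1. It had 77.59 expected counts in siKAT7 and 122.13 in siControl, and IER3-AS1 had 9.36 and 14.11. The gene opposite EGR3 had 0 counts in both libraries.

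**Figure D3:**
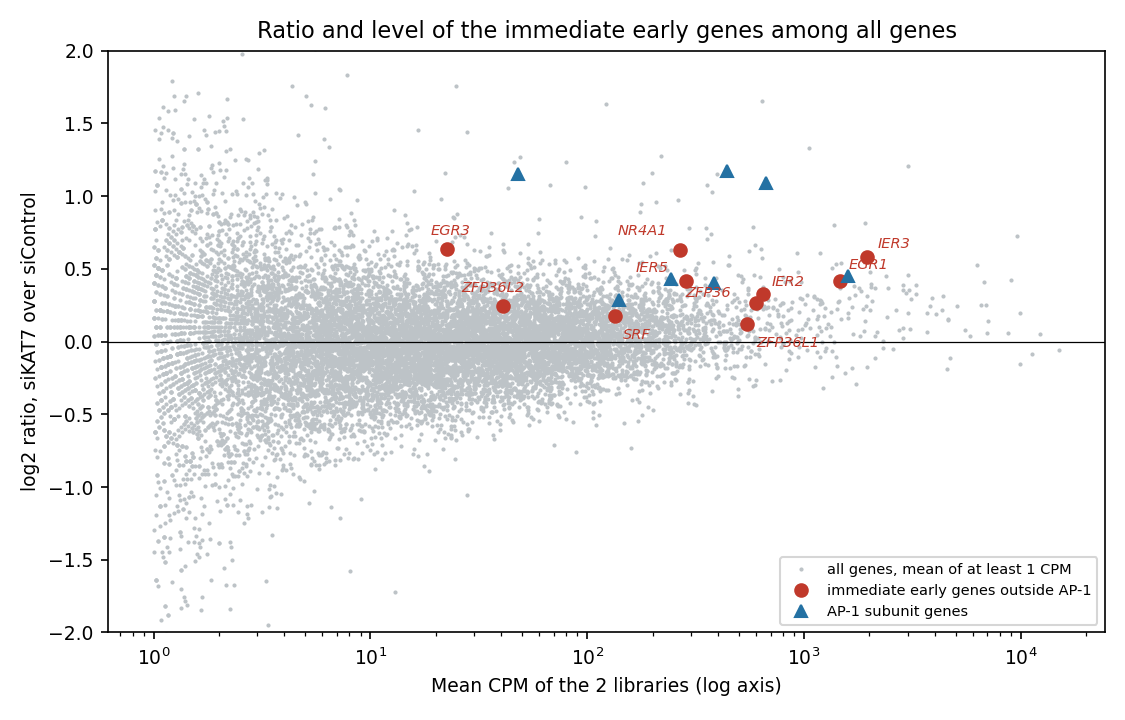
Log2 ratio of siKAT7 over siControl against mean CPM (log axis) for all genes averaging 1 CPM or more (grey), with the 10 immediate early genes outside AP-1 (circles) and the 7 AP-1 subunit genes (triangles). All 17 marked genes lie above 0, with 3 AP-1 genes above every member, and 48 grey genes lie beyond the drawn range.

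Against the AP-1 subunits, which belong to the same class of genes, the members as a set had a smaller ratio. FOS, JUN and FOSB had log2 ratios of 1.18, 1.09 and 1.15, and JUNB, FOSL1, JUND and FOSL2 had 0.45, 0.43, 0.41 and 0.28. The AP-1 median was 0.45 and 3 of 7 passed the 1.5-fold rule. The members' summed counts were 1.59 times the AP-1 sum in siKAT7 and 1.86 times in siControl, a log2 difference of -0.23 (-0.25 to -0.21, counting error only). The 4 AP-1 genes that did not pass lay within the range of the members' ratios.

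EGR2 had 663 counts in siKAT7 and 443 in siControl and a log2 ratio of 0.68 (0.51 to 0.86), and EGR4 had 117 and 83 counts and 0.59 (0.18 to 1.02), so both passed the 1.5-fold rule, as EGR3 did. With total-count scaling neither passed, and EGR4, on few counts, also missed the limit with a prior count of 5, with mitochondrially encoded genes left out, and under a filter at 10 CPM. NAB2 and NAB1, corepressors of EGR factors, had log2 ratios of 0.21 (0.15 to 0.27) and 0.08 (-0.19 to 0.35). The intervals of the NR4A1 paralogues lay below that of NR4A1, with log2 ratios of 0.07 (-0.12 to 0.26) for NR4A2 on 457 counts in siKAT7 and 466 in siControl, and -0.04 (-0.42 to 0.33) for NR4A3 on 114 and 126. The nuclear receptor genes RXRA and RXRB had log2 ratios of 0.09 and 0.16, and RXRG had 0 counts. With total-count scaling 1 of these 4 measured genes stayed above 0.

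SRF's cofactors and targets lay on both sides of 0. The actin-regulated cofactors MRTFA and MRTFB had log2 ratios of -0.13 and -0.09, the ternary complex factors ELK1, ELK3 and ELK4 had 0.06, 0.06 and 0.17, and MYOCD had 0 counts. With total-count scaling 1 of these 5 measured cofactors stayed above 0. Of 14 measured SRF targets, 8 had ratios above 0 and none passed the 1.5-fold rule, with a median of 0.06 that became -0.04 with total counts as the scale. CCN1, a matricellular immediate early gene, came nearest, at 0.56 (0.45 to 0.67). Among 8 EGR1 targets, 4 were above 0 and none passed. Their median of 0.02 became -0.09 with total counts as the scale. Of 6 genes past the filter with at least 2 CArG boxes in a promoter window, EGR1 and SRF had intervals above 0, and those of AGPAT1, CUL4B, ING4 and ZNF548 included 0. Genes averaging 1 CPM or more that had a promoter entry were split by the presence of a CArG box. Of the 146 with a box, 2.05% (3 genes) were at least 1.5-fold higher, as were 2.60% of the 9618 without one. The median log2 ratio was 0.01 with a box and -0.01 without, with 54.1% and 48.4% above 0.

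Messages known to be bound by ZFP36 proteins, and genes of the decay machinery, also lay on both sides of 0. Of 13 measured target RNAs, 9 had ratios above 0 and 2 passed the 1.5-fold rule, CXCL3 (1.32) and BIRC3 (1.01), both on fewer than 100 counts per library and both left out by a filter at 10 CPM. CCND1, the cyclin D1 gene, had a log2 ratio of -0.34 (-0.38 to -0.30). The list median was 0.26, or 0.15 with total-count scaling. Among 26 genes of deadenylation, decapping, the exosome and AU-binding proteins, 7 were above 0 and the median was -0.10, with CNOT2, a CCR4-NOT scaffold subunit, the 1 that passed (0.65, 0.30 to 1.01), and none under total-count scaling. Across the 11834 protein-coding genes past the filter, those with TTATTTATT had a median log2 ratio of -0.03 and those without it -0.01. For genes with at least 3 copies of ATTTA the median was -0.05, with 41.6% above 0, and for genes with fewer it was 0.02, with 52.7% above 0.

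Upstream, 7 of 21 measured ERK and p38 cascade genes had ratios above 0 and none passed, with a median of -0.09. BRAF, at -0.57, was the 1 gene at least 1.5-fold lower under total-count scaling. All 9 NF-kB subunits and inhibitors were above 0, 7 of them under total-count scaling, with a median of 0.30 and none passing. In the HSF1 axis, which IER5 is known to promote, 4 of 13 passed, all heat shock protein genes (HSPA1A, HSPA1B, HSPH1 and DNAJB1), while HSF1 itself had 0.08. Reads of the near-identical HSPA1A and HSPA1B can be divided between them.

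Other primary response genes covered a wider range than the members. Of 26, 18 were above 0 and 8 passed, led by DUSP2 (1.24), DUSP1 (1.16), PPP1R15A (1.16) and GADD45B (1.08). DUSP2 and DUSP1 encode phosphatases that inactivate MAP kinases. With total-count scaling, 14 were above 0 and 7 passed, without GADD45A. MYC had -0.05, KLF4 -0.11, PLK3 -0.15 and DUSP6 -0.34. The list median was 0.17, or 0.06 under total-count scaling. Among genes of at least 100 CPM, the 5 with log2 ratios nearest to the members' median of 0.37, over the 2 libraries, included C19orf33, MAFK, NOP53 and RPL28, each at 0.37.

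**Figure D4:**
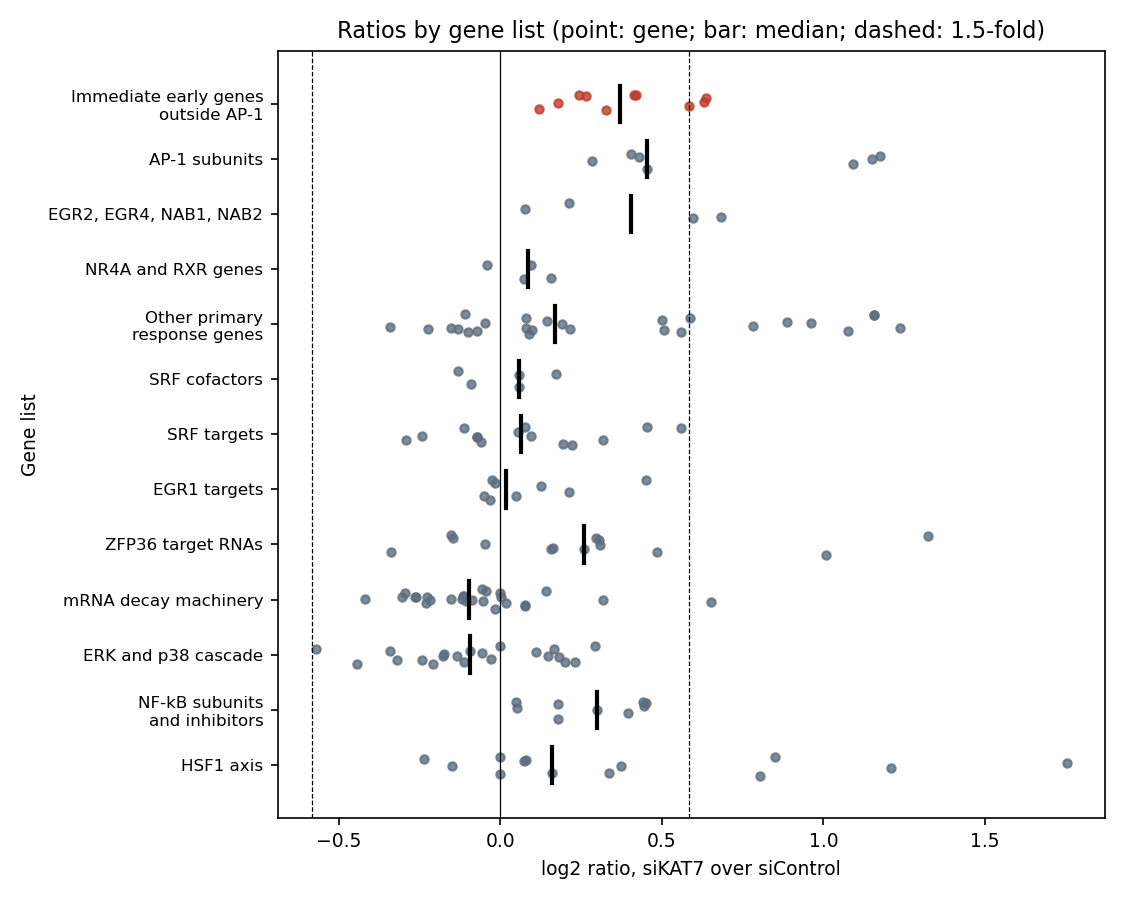
Log2 ratio of siKAT7 over siControl for each gene averaging 1 CPM or more in each list, 1 point per gene, with the list median as a bar and 1.5-fold as dashed lines. The 10 members lie between 0.12 and 0.64, the AP-1 list reaches 1.18, and the cascade and decay lists have medians under 0.

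The members also share a compact structure. By the protein-coding transcript with the longest coding sequence, 8 of 10 had 1 or 2 exons, against 6.46% of 11834 protein-coding genes, and 8 of 10 spanned under 10000 bases, against 19.2%. The exceptions on both counts were NR4A1 and SRF. Short genes as a class also had higher ratios in these libraries. The median log2 ratio was 0.11 over 2268 genes spanning under 10000 bases and -0.04 over longer ones, or 0.00 over the short genes with total-count scaling. At a mean of at least 100 CPM it was 0.17 over 566 short genes, of which 82.2% were above 0, and 0.02 over 1152 longer ones. Of those 566, 3.18% passed the 1.5-fold rule as higher. Over 98 genes of 1 or 2 exons at that level, the median was 0.22, with 75.5% above 0 and 6.12% passing as higher. The part of gene length or exon number in the members' ratios was not tested.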

How the data were processed

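RNA-seq libraries from total RNA of 2 HCT116 cultures, 1 per group, were analysed. The authors deposited expected counts for every gene. The submitters' processing notes name RSEM 1.3.3 and the build GRCh38.p13. Neither aligner, annotation release nor strand setting is stated there. The authors' deposited comparison holds a fold (ratio), its log2, a p-value and that p-value after adjustment. With 1 library a group such p-values compare libraries, not conditions. The count columns occur in 2 copies with 0 differing cells, and each library was used once. The 331 unnamed rows, 1.67% of counts in siKAT7 and 1.11% in siControl, were left out.

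Counts were rounded and scaled with TMM factors (0.964 in siKAT7, 1.04 in siControl, from edgeR 4.0.16 in R 4.3.3). Log2 ratios used a prior count of 0.5, and intervals were exact Clopper-Pearson. Genes needed a mean of 1 CPM. A gene passed when it was at least 1.5-fold different with an interval excluding 0. Intervals of ratios between members used Woolf's formula. The procedure was checked on simulated counts. Members, gene lists and their 192 entries were chosen with earlier results of these data known. All members were named, with up to 4 passing genes of each other list by size and every measured EGR, NAB, NR4A, RXR, SRF cofactor and AP-1 gene. Other named genes, the pairs of members, and the groups by gene span, exon number and 100 CPM were chosen after values were seen. Annotation was GENCODE 29, which holds 58516 of the named identifiers. Alternatives included DESeq2 1.42.0 size factors. A few genes are not reported here.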

Additional observations from a re-analysis of the deposited data

How the results depend on the processing

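No paired analysis was possible because each group had 1 library, and for the same reason no replicate could be left out. Over 6 alternatives (scaling by total counts or DESeq2 size factors, prior count, rounding, mitochondrial genes left out, and the authors' deposited folds), 60 of 60 member values stayed above 0. The same genes and 2 libraries gave all 60, so they are not separate checks. Prior count and rounding could hardly change a sign at these counts. ZFP36L1 was at 0.011 under total-count scaling, with an interval (-0.02 to 0.05) that included 0. The number of members at least 1.5-fold higher was 2, and 0 under total-count scaling, the authors' deposited folds, a limit of 2-fold, or an interval bound past 1.5-fold, and 6 with the limit at 25%. It was 2 with DESeq2 size factors, a prior count of 5, unrounded counts, a mean of 10 CPM or no filter. The members' median log2 ratio was 0.37, and 0.26 under total-count scaling and by the authors' folds, and 0.36 without mitochondrially encoded genes in the library size. Over the 12 pathway lists, 20 genes were higher and 0 lower. The higher count was 11 at 2-fold and 34 at 25%. The lower count was 1 under total-count scaling and by the authors' folds, and 5 at 25%. Members with an AU-rich motif numbered 5, or 8 with ATTTA at least 3 times. Over all genes, 518 were higher and 515 lower. These became 109 and 60 at a mean of 10 CPM, 1008 and 983 with no filter, 179 and 144 at 2-fold, 1341 and 1435 at 25%, and 144 and 85 by the interval bound. They were 355 and 843 under total-count scaling and 348 and 853 by the authors' folds. The moves under other scalings, limits and filters follow from their construction. The authors' folds nearly equalled the ratios under total-count scaling, with member medians of 0.263732 and 0.263687. They are therefore not a check separate from that scaling, and how they were scaled was not tested. The spread between cultures is unknown, and depth limits EGR3 and ZFP36L2 most.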
